A study of Mus musculus with 12 samples.

Results

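Imprinted genes were followed in NIH3T3 fibroblasts and in a line made from them that lacks N-VEGF. The genes are the 43 names of a list of mouse imprinted genes, looked up by gene name in a table of 54446 genes, and all 43 were found. They lie on 11 chromosomes, with 15 on chromosome 7, and 6 each on chromosomes 2, 6 and 12. RNA of 12 libraries had been sequenced, 3 in each of 4 groups. Wild type cells are NIH3T3, a line of mouse embryonic fibroblasts, kept in normoxia or in hypoxia. dN-VEGF cells are NIH3T3 cells in which both Vegfa alleles were cut with CRISPR/Cas9 to delete the N-VEGF coding sequence, the amino-terminal stretch made from the long form of VEGF, and they were kept in the same 2 states. The deletion was made with donor cassettes, drug selection, picked clones, and a virus carrying a recombinase with cell sorting to remove the cassettes. Which clone was sequenced is not stated in the sources used here. Cloning of the parent is not described, and the deletion cannot be told apart from the descent of dN-VEGF cells from few cells or from their selection. The methods say in general terms that experiments were repeated, but not that the sequenced replicates were separate cultures, so p-values measure the spread between these samples, which may be technical.

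Imprinted genes are expressed mainly from the copy inherited from the father or mainly from that of the mother, because a methylation mark laid down in the germ line is kept at a control region nearby. They sit in domains in which a long non-coding RNA or an insulator sets which protein-coding genes are read on each chromosome. Many act on fetal growth, on the placenta or on the brain, and several are kept low in adult tissue. Total counts do not part the copies, so levels here are sums over alleles and a change in level says nothing of which allele was read. By general knowledge, 27 of the 43 genes are read from the paternal copy and 11 from the maternal copy, and 5 depend on tissue or transcript.

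Vegfa itself, the gene edited, gave 86.2, 39.4 and 82.6 CPM (counts scaled by library size and composition) in wild type normoxia, and 37.3, 34.2 and 35.5 CPM in dN-VEGF normoxia. The same gene gave 277, 272 and 291 CPM in wild type hypoxia and 437, 419 and 430 CPM in dN-VEGF hypoxia. Counts over the whole gene do not show the deleted stretch, so they do not check the genotype. The 8 hypoxia genes listed as controls rose in hypoxia in both lines. Libraries held 30519052 to 43056690 counts on genes. The normoxia libraries numbered 2 stand apart from the others of their groups: across tested genes that of wild type correlated at 0.956 and 0.957 with its fellows, which correlated at 0.996 with each other, and that of dN-VEGF at 0.986, against 0.996. The counts of the 43 genes called in each comparison are therefore given with and without these 2 libraries, and all other counts with all 12 libraries alone. Of 10 fibroblast markers, 9 had a mean of at least 1 CPM in every group, and the other, Fap, had at most 2 counts in any library. Between the lines 4 of the 9 that were tested, Col1a1, Col1a2, Col3a1 and Fn1, were called as higher in dN-VEGF hypoxia, against 10.8% of all tested genes. Thy1, Vim, Pdgfra, Pdgfrb and S100a4 were not called there. Col3a1 was lower in dN-VEGF normoxia, as were the muscle marker Des, the fat cell marker Fabp4 and 2.97% of all tested genes. Summed CPM of 4 endothelial markers was 20.3 to 25.1 in dN-VEGF hypoxia against 5.91 to 8.05 in wild type hypoxia, nearly all of it from Cdh5, while Kdr had 0 counts in both. Summed CPM of 5 epithelial markers was 8.18 to 8.80 in wild type hypoxia against 1.13 to 1.29 in dN-VEGF hypoxia, with Krt19 at 6.88 to 7.84 and 0.675 to 0.772 CPM, while Epcam had 0 counts in all libraries. The part of such differences in the results below was not tested, and in bulk RNA fewer cells of a type cannot be told apart from less RNA per cell.

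Of the 43 genes, 27 had enough counts to be tested and 16 did not. The untested genes are Zim1, Meg3, Dio3, Peg10, Sgce, Ppp1r9a, Cdkn1c, Phlda2, Ndn, Magel2, Snurf, Nespas, Nap1l5, Rasgrf1, Zdbf2 and Peg13. No library held more than 10 counts of any of them, and 4 (Peg10, Phlda2, Snurf and Zdbf2) had 0 counts in all 12. Several of these are leading genes of their domains: Meg3 is the maternal non-coding RNA of the Dlk1-Dio3 domain, Cdkn1c a cyclin-dependent kinase inhibitor, Phlda2 a growth-limiting placental gene, and Peg10 a retrotransposon-derived gene needed for the placenta. Meg3 had 0, 0 and 0 counts in wild type normoxia, 0, 0 and 1 in wild type hypoxia, 4, 3 and 1 in dN-VEGF normoxia and 1, 0 and 1 in dN-VEGF hypoxia. A count of 0 allows up to 3 counts per library, so small differences among these genes were not detectable at this depth. Snurf is apart from this, since all of its exon bases are shared with other genes and its reads may have been left uncounted. Rasgrf1, a guanine nucleotide exchange factor, held the highest count among them, with 6, 10 and 8 in dN-VEGF hypoxia, 0, 2 and 1 in dN-VEGF normoxia, 5, 1 and 2 in wild type hypoxia, and 0, 1 and 2 in wild type normoxia. Its summed counts in dN-VEGF cells were 24 in hypoxia against 3 in normoxia, a ratio of 10.8 after scaling with a 95% counting interval of 3.29 to 56.2 that covers counting error only. It was left out of the edgeR test by the filter on low counts, and was called for hypoxia in dN-VEGF cells by edgeR without that filter and by DESeq2.

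Among the 27 tested genes, 4 had a mean over the libraries above 100 CPM, 8 lay between 10 and 100, 7 between 1 and 10 and 8 at or under 1. Per kilobase of exon, mean levels (CPM per kilobase) were highest for Dlk1, a transmembrane ligand related to Notch ligands that holds back fat cell differentiation, at 426, and for Grb10, an adaptor that dampens insulin and IGF receptor signals, at 83.8. H13, which encodes a signal peptide peptidase, followed at 25.0 and Slc38a4, an amino acid transporter, at 24.4. Dlk1 and Grb10 together gave 66.7% to 90.2% of the counts of the 43 genes in a library. All 43 genes took 0.184% to 0.294% of the counts in wild type libraries, 0.263% to 0.439% in dN-VEGF normoxia and 0.605% to 0.656% in dN-VEGF hypoxia.

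The first question is which imprinted genes differ between dN-VEGF and wild type cells in each oxygen state. A gene was called at an adjusted p below 0.05, and changes are log2 fold changes with their standard error. In hypoxia 7 of the 27 tested genes were called (25.9%), against 20.1% of all 14724 tested genes. Of these, 5 were higher in dN-VEGF cells (10.8% of all tested genes were) and 2 were lower (9.36% of all). H19, Dlk1, Plagl1, Grb10 and H13 were the higher genes, and Slc38a4 and Mcts2 the lower ones. In normoxia 2 of 27 were called (7.41%), Grb10 higher and Snrpn lower, against 4.36% of all tested genes (1.39% higher and 2.97% lower). Both shares are a few points above the background. With total counts as the only scaling, 3 genes were higher and 6 lower in hypoxia, when 26.8% of all tested genes were called, and the median of all tested genes there moved from -0.01 to -0.23. The median change of the 27 genes was 0.16 in hypoxia and -0.02 in normoxia, beside -0.01 and -0.03 over all tested genes. The normoxic count depends on the libraries that stand apart: without both it was 16 of 27, when 53.6% of all tested genes were called, and the hypoxic count was then 16 as well, with 55.8% of all. Without wild type normoxia replicate 2 alone, the counts were 17 in normoxia, with 48.9% of all tested genes called, and 15 in hypoxia, with 42.4% of all. Without dN-VEGF normoxia replicate 2 alone, the normoxic count was 3, with 4.18% of all. Same-numbered normoxia libraries deviated together, and with replicate number as a block 3 genes were called in normoxia (4.37% of all tested genes were), Plagl1 beside Grb10 and Snrpn. In the 6 normoxia libraries alone, a fit with the block called 0 of 25 genes, when 0.00718% of all tested genes were called.

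**Figure D1:**
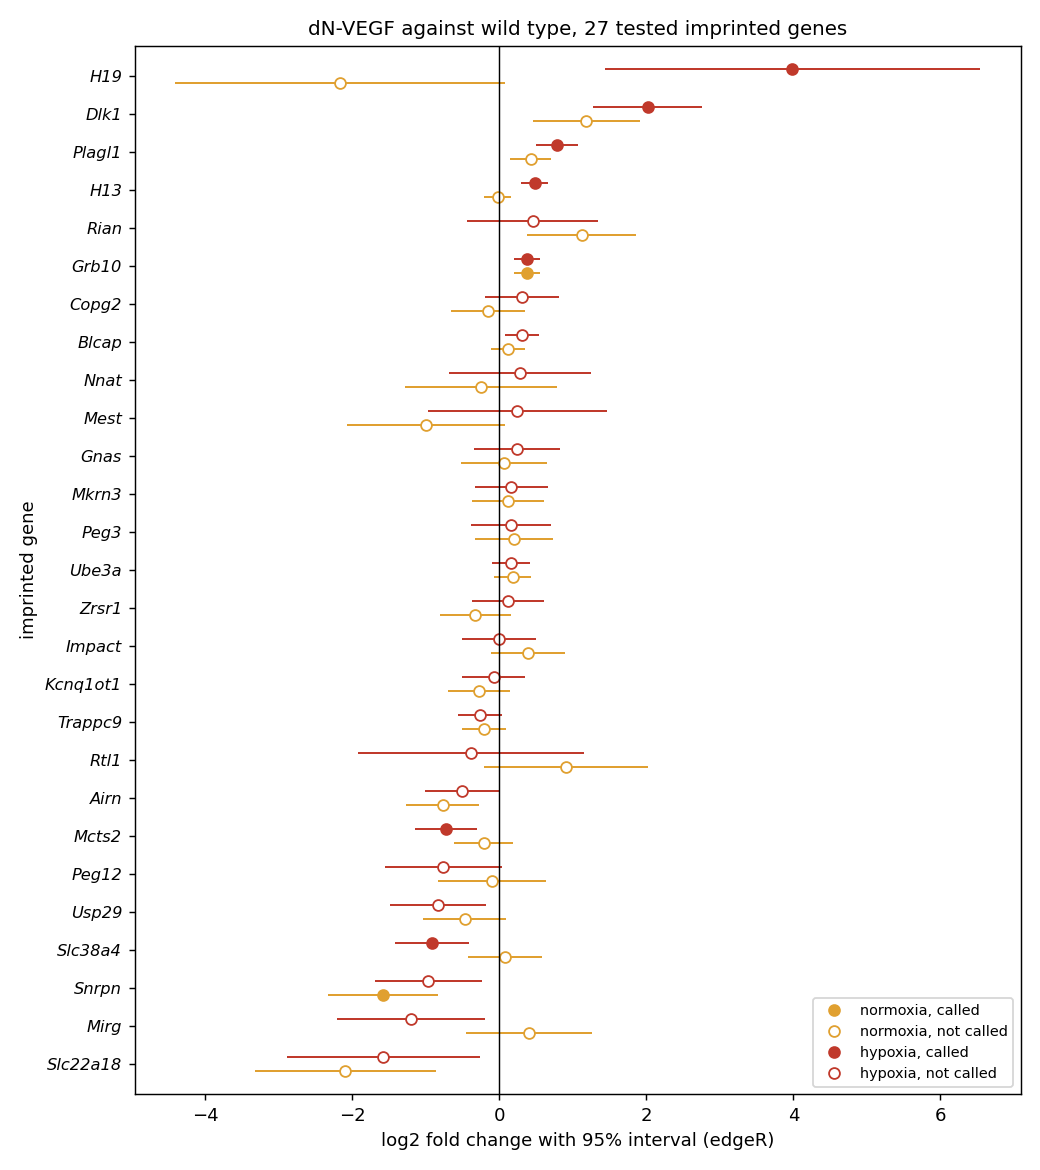
Log2 fold change of dN-VEGF against wild type cells with its 95% interval (x axis) for the 27 tested imprinted genes (y axis), in normoxia (orange) and hypoxia (red). Filled points passed an adjusted p of 0.05 in the edgeR quasi-likelihood test over all 12 libraries. In hypoxia 5 filled points lie above 0 and 2 below, and in normoxia 1 lies on each side.

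Dlk1 showed the largest difference among the abundant genes. It lies at chromosome 12, 109452823 to 109463336 (GRCm38) and none of its exon bases are shared with another gene. Its levels were 815, 672 and 743 CPM in wild type normoxia, 1327, 1583 and 1372 in wild type hypoxia, 1123, 2945 and 992 in dN-VEGF normoxia and 6095, 5798 and 5435 in dN-VEGF hypoxia. The 3 hypoxic dN-VEGF libraries lay far above all others, and no pair of groups that differ in line or oxygen alone overlapped. In hypoxia Dlk1 was 4.05-fold higher in dN-VEGF cells (log2 2.02, SE 0.34, adjusted p = 0.0024), and this call held in all 21 alternatives. In normoxia the difference was 1.18 (SE 0.33, adjusted p = 0.07). Of the normoxic dN-VEGF libraries, replicate 2 was the highest, and without both libraries numbered 2 the normoxic difference was 0.45 (adjusted p = 0.00015). Hypoxia raised Dlk1 by 1.78 (SE 0.33, adjusted p = 0.0011) in dN-VEGF cells and by 0.94 (SE 0.33, adjusted p = 0.044) in wild type cells. The rise in wild type cells lost its call without any of 8 libraries (adjusted p 0.06 to 0.12). These were all 6 hypoxic libraries and wild type normoxia replicates 1 and 3. The responses of the lines differed by 0.84 (95% interval -0.18 to 1.85, adjusted p = 0.33). Without dN-VEGF normoxia replicate 2 this difference was called (adjusted p = 0.0016), and without both libraries numbered 2 it was 1.56 (adjusted p = 3.5e-10), with a rise in dN-VEGF cells of 2.44.

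The other genes of the Dlk1-Dio3 domain were scarce. Rtl1, a paternally read gene derived from a retrotransposon, had 33, 35 and 31 counts in wild type normoxia, 11, 7 and 10 in wild type hypoxia, 32, 118 and 24 in dN-VEGF normoxia and 9, 5 and 5 in dN-VEGF hypoxia. Its hypoxic libraries lay below the normoxic ones in both lines. It fell by 2.75 (SE 0.61, adjusted p = 0.0029) in dN-VEGF cells, while the value in wild type cells was -1.45 (adjusted p = 0.076). Normoxic dN-VEGF replicate 2 was far above the other libraries, and without it the fall in dN-VEGF cells was smaller, at -1.68 (adjusted p = 0.0016), and that in wild type cells was called (-1.45, adjusted p = 0.0023). Dlk1 and Rtl1, which share the paternal chromosome of the domain, thus had opposite signs in hypoxia. Part of the exon bases of Rtl1 (8.4%) lie over 7 microRNA genes, 6 of them on the opposite strand, and counts that ignore strand would not part them. Rian and Mirg, maternal non-coding RNAs of the domain, had 3 to 14 and 3 to 12 counts per library, and neither was called in any comparison at the settings used throughout (edgeR, all 12 libraries, TMM scaling, a filter on low counts and no block). For hypoxia in dN-VEGF cells, Mirg was called with the replicate block and both were called with total counts alone. Between the lines, Rian differed by 1.12 in normoxia (adjusted p = 0.093) and Mirg by -1.20 in hypoxia (adjusted p = 0.087), without overlap. Without wild type normoxia replicate 2 both of these were called, and that of Mirg also with total counts alone. Without that library, the responses of Mirg to hypoxia were also called as different between the lines.

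H19, a maternally read non-coding RNA that holds back growth and hosts a microRNA, was near the floor of detection. It lies at chromosome 7, 142575529 to 142578143. Its counts were 12, 0 and 14 in wild type normoxia, 0, 1 and 1 in wild type hypoxia, 1, 4 and 0 in dN-VEGF normoxia and 8, 12 and 13 in dN-VEGF hypoxia. In hypoxia every dN-VEGF library was above every wild type library, and in normoxia the groups overlapped. The normoxic difference between the lines had the other sign, at -2.17 (adjusted p = 0.28). Without both normoxia libraries numbered 2, it was -4.22 (adjusted p = 0.00026). Summed counts in hypoxia were 33 against 2, a ratio of 18.5 after scaling with a 95% counting interval of 4.72 to 159 that covers counting error only. The fitted difference was 3.99 (SE 1.16, adjusted p = 0.034). That call was lost without any of the 6 hypoxic libraries (adjusted p 0.066 to 0.12) and with the replicate block (4.01, adjusted p = 0.05). Hypoxia raised H19 in dN-VEGF cells by 3.06 (SE 0.98, adjusted p = 0.021), while the value in wild type cells was -3.10 (SE 1.23, adjusted p = 0.07). The rise was not called without dN-VEGF normoxia replicate 1 or 3 or dN-VEGF hypoxia replicate 2 or 3 (adjusted p 0.056 to 0.074). The difference between these responses was 6.15 (95% interval 2.73 to 9.58, adjusted p = 0.057). Without both normoxia libraries numbered 2, it was 8.20 (adjusted p = 1.9e-06), and the value in wild type cells was -3.64 (adjusted p = 0.00015).

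Igf2, the paternally read growth factor that shares an enhancer with H19 and is not among the 43 genes, is the neighbour against which H19 is usually read. It gave 6.48, 0.0464 and 3.58 CPM in wild type normoxia, 0.208, 0.0685 and 0.127 in wild type hypoxia, 1.25, 32.9 and 1.54 in dN-VEGF normoxia and 49.7, 46.7 and 48.0 in dN-VEGF hypoxia. Its hypoxic dN-VEGF libraries stood above all others, and normoxic dN-VEGF replicate 2 was the next highest. In hypoxia it was higher in dN-VEGF cells by 8.40 (SE 1.78, adjusted p = 0.008), and the normoxic difference of 1.82 (adjusted p = 0.45) became -1.82 (adjusted p = 1.1e-06) without both normoxia libraries numbered 2. Igf2r, the maternally read receptor that clears IGF2, gave 332, 151 and 329 CPM in wild type normoxia, 90.5, 88.2 and 92.8 in wild type hypoxia, 232, 198 and 234 in dN-VEGF normoxia and 139, 140 and 144 in dN-VEGF hypoxia. It fell in hypoxia by 1.58 (SE 0.24, adjusted p = 0.00039) in wild type cells and by 0.65 (SE 0.23, adjusted p = 0.034) in dN-VEGF cells. The smaller fall lost its call without dN-VEGF normoxia replicate 1 or 3 or any hypoxic dN-VEGF library (adjusted p 0.072 to 0.082). Airn, the antisense RNA that silences Igf2r on the paternal chromosome, had 53 to 179 counts per library and was not called in any comparison at these settings. DESeq2 called it between the lines in normoxia, as did edgeR without wild type normoxia replicate 2, there and in hypoxia. Airn and Igf2r overlap on opposite strands without sharing exon bases. In the Kcnq1 domain of chromosome 7, beside H19, Kcnq1ot1, an antisense RNA, lay between 5.50 and 10.1 CPM and was not called at these settings. Slc22a18, a transporter, had 8 to 42 counts in wild type and 3 to 8 in dN-VEGF libraries, with differences of -2.10 (adjusted p = 0.06) in normoxia and -1.58 (adjusted p = 0.086) in hypoxia. DESeq2 called the former, and edgeR called both without wild type normoxia replicate 2.

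Plagl1 and Grb10 are regulators of growth. Plagl1 encodes a zinc finger factor that slows the cell cycle and activates other imprinted genes, and it lies at chromosome 10, 13060504 to 13131694. Its levels were 20.5, 15.98 and 20.3 CPM in wild type normoxia, 13.5, 13.4 and 15.2 in wild type hypoxia, 26.0, 23.4 and 26.95 in dN-VEGF normoxia and 25.9, 21.4 and 25.3 in dN-VEGF hypoxia. All dN-VEGF libraries were above all wild type libraries in the same state. In hypoxia Plagl1 was 1.72-fold higher in dN-VEGF cells (log2 0.78, SE 0.13, adjusted p = 0.0021), a call that 20 of 21 alternatives kept. In normoxia the difference was 0.43 (SE 0.13, adjusted p = 0.088), and with the replicate block it was called (0.43, adjusted p = 0.038). Hypoxia lowered Plagl1 by 0.43 (SE 0.13, adjusted p = 0.021) in wild type cells, while the value in dN-VEGF cells was -0.07 (95% interval -0.35 to 0.20). With total counts alone, the value in dN-VEGF cells was called (-0.48, adjusted p = 0.025). The fall in wild type cells lost its call without wild type normoxia replicate 1 or 3 or wild type hypoxia replicate 1 or 2 (adjusted p 0.063 to 0.076). The difference of the responses was 0.36 (95% interval -0.04 to 0.75, adjusted p = 0.28).

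Grb10 lies at chromosome 11, 11930508 to 12038683. Its levels were 518, 543 and 533 CPM in wild type normoxia, 793, 796 and 797 in wild type hypoxia, 713, 618 and 735 in dN-VEGF normoxia and 1019, 1054 and 1025 in dN-VEGF hypoxia. No groups overlapped in any of the 4 comparisons. It was 1.30-fold higher in dN-VEGF cells in both states, by 0.37 (SE 0.08, adjusted p = 0.029) in normoxia and by 0.38 (SE 0.08, adjusted p = 0.0091) in hypoxia. Hypoxia raised it by 0.58 in each line (adjusted p = 0.00025 for wild type and 0.00014 for dN-VEGF), and the responses differed by 0.00 (95% interval -0.25 to 0.26). With total counts alone, the rise was 0.36 in wild type cells and 0.18 in dN-VEGF cells, where it was not called (adjusted p = 0.14). With total counts as the only scaling Grb10 was not called between the lines in hypoxia (0.16, adjusted p = 0.26) or in normoxia (0.33, adjusted p = 0.086). The normoxic call was also lost on leaving out 9 of the 12 libraries, each in turn (adjusted p 0.055 to 0.12), the exceptions being replicate 2 of wild type normoxia, of wild type hypoxia and of dN-VEGF normoxia.

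**Figure D2:**
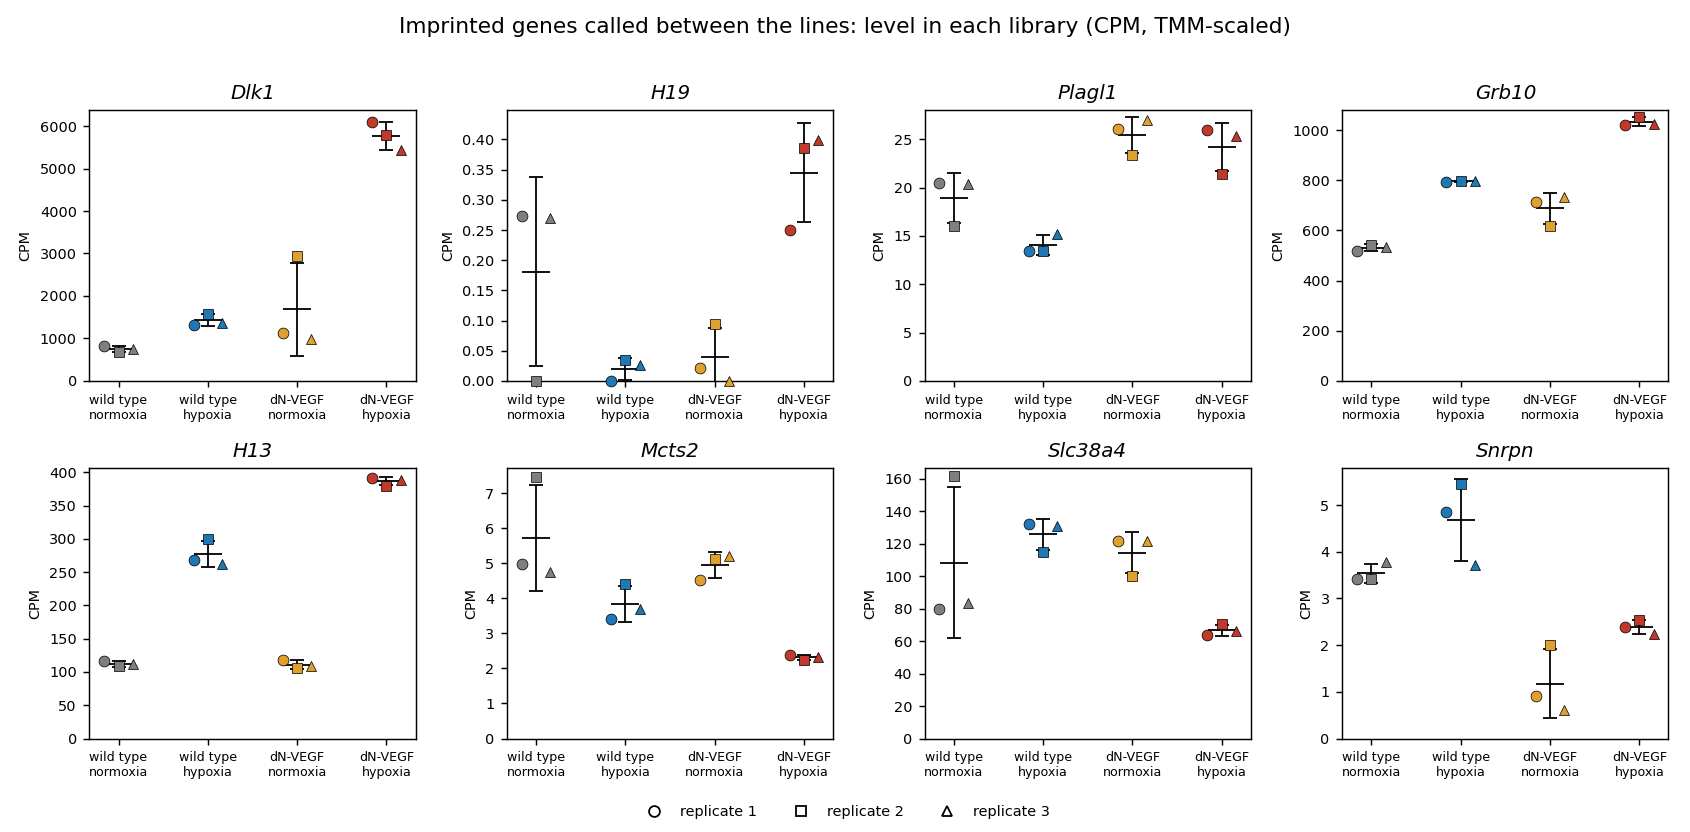
Level in CPM (y axes, from 0) of the 8 imprinted genes called between the lines, in each of the 12 libraries. Symbols mark the replicate number, and bars give the mean and SD of 3 libraries. Dlk1 reaches 5435 to 6095 CPM in dN-VEGF hypoxia, and H19 stays under 0.4 CPM everywhere.

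H13 and Mcts2 overlap and moved apart. Mcts2, a paternally read retrogene copy of a translation factor gene, lies at chromosome 2, 152687035 to 152687946, inside an intron of H13, whose span is 152669461 to 152708670 and which is read on the same strand from the maternal copy where full length. H13 gave 117, 108 and 112 CPM in wild type normoxia, 269, 300 and 263 in wild type hypoxia, 118, 106 and 109 in dN-VEGF normoxia and 391.7, 380 and 389 in dN-VEGF hypoxia. The lines overlapped in normoxia and were apart in hypoxia. H13 rose in hypoxia by 1.30 (SE 0.08, adjusted p = 8.6e-07) in wild type cells and by 1.80 (SE 0.09, adjusted p = 4.9e-08) in dN-VEGF cells. In hypoxia it was 1.40-fold higher in dN-VEGF cells (log2 0.48, SE 0.08, adjusted p = 0.0029), but 0.26 (adjusted p = 0.084) with total counts alone.

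Mcts2 gave 4.98, 7.48 and 4.76 CPM in wild type normoxia, 3.40, 4.42 and 3.69 in wild type hypoxia, 4.52, 5.12 and 5.22 in dN-VEGF normoxia and 2.38, 2.25 and 2.33 in dN-VEGF hypoxia. Hypoxic dN-VEGF libraries were the lowest. It fell in hypoxia by 1.09 (SE 0.19, adjusted p = 0.00065) in dN-VEGF cells and by 0.58 (SE 0.19, adjusted p = 0.03) in wild type cells, where leaving out wild type hypoxia replicate 1 or 3 ended the call (adjusted p 0.099 to 0.12). In hypoxia it was lower in dN-VEGF cells by -0.72 (SE 0.19, adjusted p = 0.023), a call lost without wild type hypoxia replicate 2 or 3 or any hypoxic dN-VEGF library (adjusted p 0.065 to 0.085). Mcts2 and the gene it was copied from are near-identical in sequence, so its counts are uncertain where reads match both.

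Other genes of the list are nested as well. Blcap, which encodes a small membrane protein, hosts Nnat, a neuronal proteolipid gene on the opposite strand. Blcap gave 25.7, 31.3 and 24.4 CPM in wild type normoxia, 36.0, 37.6 and 33.8 in wild type hypoxia, 28.1, 28.9 and 31.1 in dN-VEGF normoxia and 45.6, 44.9 and 42.1 in dN-VEGF hypoxia. Its hypoxic libraries were above the normoxic ones in each line. It rose by 0.40 (SE 0.11, adjusted p = 0.013) in wild type cells and by 0.59 (SE 0.11, adjusted p = 0.00079) in dN-VEGF cells. The former call ended without wild type normoxia replicate 3 (0.33, adjusted p = 0.05), without the filter on low counts and in the 6 libraries of the comparison. Both calls ended with total counts alone, at 0.18 in wild type cells and 0.19 (adjusted p = 0.082) in dN-VEGF cells. Nnat had 5 to 19 counts per library and was not called at these settings. Trappc9, a subunit of a vesicle tethering complex, hosts Peg13, which had at most 4 counts in a library. Trappc9 gave 86.5, 58.2 and 80.6 CPM in wild type normoxia, 38.2, 46.1 and 38.5 in wild type hypoxia, 65.6, 67.2 and 62.1 in dN-VEGF normoxia and 34.4, 34.6 and 33.2 in dN-VEGF hypoxia. All hypoxic libraries were below all normoxic ones, and it fell by 0.88 (SE 0.14, adjusted p = 0.00055) and 0.93 (SE 0.14, adjusted p = 0.00021) in wild type and dN-VEGF cells. Zrsr1, a splicing factor retrogene inside Commd1, lay between 7.41 and 14.7 CPM without a call at these settings.

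On chromosome 7, the Snrpn domain held the second normoxic call. Snrpn encodes a protein of the spliceosome, and its gene lies at 59982495 to 60140219. It gave 3.42, 3.41 and 3.78 CPM in wild type normoxia, 4.85, 5.45 and 3.72 in wild type hypoxia, 0.904, 2.01 and 0.613 in dN-VEGF normoxia and 2.38, 2.54 and 2.24 in dN-VEGF hypoxia. All dN-VEGF libraries were below all wild type libraries. In normoxia it was lower in dN-VEGF cells by -1.59 (SE 0.34, adjusted p = 0.028), and in hypoxia the value was -0.97 (SE 0.33, adjusted p = 0.062), which was called with the replicate block (-0.95, adjusted p = 0.049) and by DESeq2. The normoxic call was lost without any of 8 libraries (adjusted p 0.051 to 0.13), which are all but the 2 normoxia libraries numbered 2 and wild type hypoxia replicates 2 and 3. Without both normoxia libraries numbered 2, the differences were -2.22 (adjusted p = 4.1e-08) and -0.96 (adjusted p = 1.8e-05). Hypoxia raised Snrpn in dN-VEGF cells by 1.02 (SE 0.35, adjusted p = 0.028), a call that ended without dN-VEGF normoxia replicate 1 or 3 or any hypoxic dN-VEGF library (adjusted p 0.054 to 0.1). Snrpn shares 34.1% of its exon bases with other genes, among them Snurf, all of whose exon bases are shared and which had 0 counts, so counts in this locus are uncertain.

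Peg12, an inhibitor of a Wnt pathway kinase, gave 3.38, 9.06 and 4.59 CPM in wild type normoxia, 2.34, 2.67 and 2.47 in wild type hypoxia, 4.22, 7.44 and 4.21 in dN-VEGF normoxia and 1.63, 1.42 and 1.35 in dN-VEGF hypoxia. Its hypoxic libraries were the lower ones in each line. It fell by 1.19 (SE 0.34, adjusted p = 0.019) in wild type cells and by 1.85 (SE 0.36, adjusted p = 0.0013) in dN-VEGF cells, and the former call ended without any wild type hypoxia library (adjusted p 0.051 to 0.068). Without both normoxia libraries numbered 2, the fall in wild type cells was smaller, at -0.69 (adjusted p = 0.00027). Between the lines in hypoxia Peg12 differed by -0.76 (adjusted p = 0.17) without overlap, a difference that 4 of 21 alternatives called. Ube3a, a ubiquitin ligase read from the maternal copy in neurons, gave 38.8, 44.5 and 42.4 CPM in wild type normoxia, 35.3, 28.9 and 36.7 in wild type hypoxia, 43.9, 50.7 and 48.0 in dN-VEGF normoxia and 38.2, 33.7 and 40.3 in dN-VEGF hypoxia. Hypoxic levels were lower in each line with no overlap. It fell by 0.34 (SE 0.12, adjusted p = 0.027) in dN-VEGF cells, and the value in wild type cells was -0.32 (adjusted p = 0.052). The call ended without dN-VEGF normoxia replicate 2 or 3 or dN-VEGF hypoxia replicate 1 or 2 (adjusted p 0.06 to 0.11). Mkrn3, a ring finger gene linked to the onset of puberty, lay between 1.58 and 3.31 CPM without a call.

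In the Peg3 domain, Peg3, a paternally read zinc finger gene, gave 39.9, 20.1 and 40.7 CPM in wild type normoxia, 14.2, 12.3 and 12.7 in wild type hypoxia, 43.0, 28.5 and 43.7 in dN-VEGF normoxia and 14.9, 15.3 and 13.6 in dN-VEGF hypoxia. All hypoxic libraries were below all normoxic ones. It fell by 1.36 (SE 0.25, adjusted p = 0.0014) in wild type cells and by 1.39 (SE 0.25, adjusted p = 0.00073) in dN-VEGF cells, and these calls held in 21 of 21 alternatives each. Between the lines Peg3 differed by 0.19 (95% interval -0.34 to 0.73) in normoxia and by 0.16 (95% interval -0.38 to 0.71) in hypoxia. Usp29, which shares a bidirectional start with Peg3, had 38, 24 and 53 counts in wild type normoxia, 24, 16 and 18 in wild type hypoxia, 24, 25 and 27 in dN-VEGF normoxia and 11, 8 and 10 in dN-VEGF hypoxia. The hypoxic dN-VEGF libraries were the lowest. It fell by 0.95 (SE 0.29, adjusted p = 0.017) in dN-VEGF cells, a call lost without dN-VEGF normoxia replicate 3 or dN-VEGF hypoxia replicate 2 (adjusted p 0.053 to 0.062), and the value in wild type cells was -0.59 (adjusted p = 0.1). Between the lines in hypoxia it differed by -0.83 (adjusted p = 0.07) without overlap, a difference that 4 of 20 alternatives called.

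Slc38a4 gave 79.6, 162 and 83.4 CPM in wild type normoxia, 132, 115 and 131 in wild type hypoxia, 122, 99.96 and 122 in dN-VEGF normoxia and 63.6, 70.3 and 66.0 in dN-VEGF hypoxia. Its hypoxic dN-VEGF libraries lay below all others, and wild type normoxia replicate 2 was the highest of all. Slc38a4 differed between the lines in normoxia by 0.08 (adjusted p = 0.88). Without both normoxia libraries numbered 2, this was 0.59 and was called. In hypoxia it was lower in dN-VEGF cells by -0.92 (SE 0.23, adjusted p = 0.018), a call lost without wild type hypoxia replicate 1 or 3 or any hypoxic dN-VEGF library (adjusted p 0.056 to 0.074). Hypoxia lowered it in dN-VEGF cells by 0.78 (SE 0.23, adjusted p = 0.014), and in wild type cells the value was 0.22 (SE 0.23, adjusted p = 0.49). Without dN-VEGF hypoxia replicate 1 the fall was no longer called (-0.75, adjusted p = 0.05). The responses differed by -0.998 (95% interval -1.71 to -0.29, adjusted p = 0.11), and without both normoxia libraries numbered 2 the value in wild type cells was 0.63 (adjusted p = 4.8e-08). The responses then differed by -1.51, which was called.

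Mest, Gnas and Impact were called in none of the 5 comparisons at the settings used throughout. Mest, a paternally read hydrolase gene, had 45, 18 and 50 counts in wild type normoxia, 21, 2 and 15 in wild type hypoxia, 19, 14 and 19 in dN-VEGF normoxia and 17, 10 and 12 in dN-VEGF hypoxia, with overlap in all comparisons. With the replicate block Mest was called as lower in hypoxia in wild type cells (-1.28, adjusted p = 0.024), against -1.22 (adjusted p = 0.083) without it. Without wild type normoxia replicate 2, that value was called (-1.49, adjusted p = 0.008), as was the normoxic line difference (-1.29, adjusted p = 0.016). Gnas, which encodes a stimulatory G protein subunit, had 101 to 239 counts in each library, with overlap throughout. Of its exon bases 22% are shared with other genes, so its counts are uncertain. Impact, a translation regulator, gave 54.7, 89.2 and 58.1 CPM in wild type normoxia, 68.0, 55.9 and 66.7 in wild type hypoxia, 70.2, 123 and 72.8 in dN-VEGF normoxia and 65.3, 60.1 and 65.1 in dN-VEGF hypoxia. In both lines replicate 2 was the highest normoxic library. Without that of wild type, Impact was called as higher in normoxic dN-VEGF cells (0.66, adjusted p = 0.013). It was also called as lower in hypoxia in dN-VEGF cells with total counts alone (-0.87, adjusted p = 0.0022) and without the filter on low counts (-0.57, adjusted p = 0.04), against -0.48 (adjusted p = 0.1) otherwise. Intervals of the line difference ran from -2.08 to 0.08 for Mest in normoxia and from -0.97 to 1.46 in hypoxia, from -0.52 to 0.64 and -0.34 to 0.83 for Gnas, and from -0.11 to 0.90 and -0.51 to 0.50 for Impact. Copg2, a coatomer subunit gene whose end overlaps that of Mest on the opposite strand over 912 bases, lay between 33.9 and 64.9 CPM without a call at these settings.

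The second question is how the imprinted genes responded to hypoxia in each line. In wild type cells 9 of the 27 tested genes were called (33.3%), 4 higher and 5 lower, against 36.5% of all tested genes (18.2% higher and 18.3% lower). In dN-VEGF cells 14 were called (51.9%), 6 higher and 8 lower, against 53.3% of all (26.9% higher and 26.4% lower). In both lines the share was slightly below the background. Each hypoxia comparison shares libraries with the line comparisons. Called in both lines with the same direction were Dlk1, Grb10, H13 and Blcap, which rose, and Peg3, Peg12, Mcts2 and Trappc9, which fell. The share of all tested genes called in both lines was not computed, so this list cannot be set against a background. The median of the 27 genes was -0.17 in wild type and 0.14 in dN-VEGF cells, beside -0.07 and -0.01 over all tested genes. Without both normoxia libraries numbered 2, the counts were 21 in wild type cells, when 65.3% of all tested genes were called, and 17 in dN-VEGF cells, when 71.4% were. Total counts alone moved the median of all tested genes to -0.30 in wild type and to -0.41 in dN-VEGF cells, with 2 of the 27 higher and 10 lower in the former, when 45.6% of all tested genes were called, and 3 higher and 12 lower in the latter, when 59.8% were. Under it Grb10, Snrpn and Blcap lost their calls in dN-VEGF cells and Dlk1 and Blcap theirs in wild type cells. Of genes read from the paternal copy, 16 were tested, and in dN-VEGF hypoxia 2 rose and 6 fell. Of those read from the maternal copy, 7 were tested, and 3 rose (H19, Grb10 and H13) and 0 fell. In wild type cells 1 paternal gene rose and 4 fell, and 2 maternal genes rose and 0 fell. These are counts of called genes. In dN-VEGF cells 8 of 16 paternal and 3 of 7 maternal genes were called, against 53.3% of all. In wild type cells 5 of 16 and 2 of 7 were called, against 36.5% of all. H19, maternal and not called in wild type cells, had -3.10 there. Median changes of the paternal and maternal genes were -0.18 and -0.17 in wild type cells, and -0.03 and 0.19 in dN-VEGF cells. These groups come from general knowledge and were not tested against each other.

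**Figure D3:**
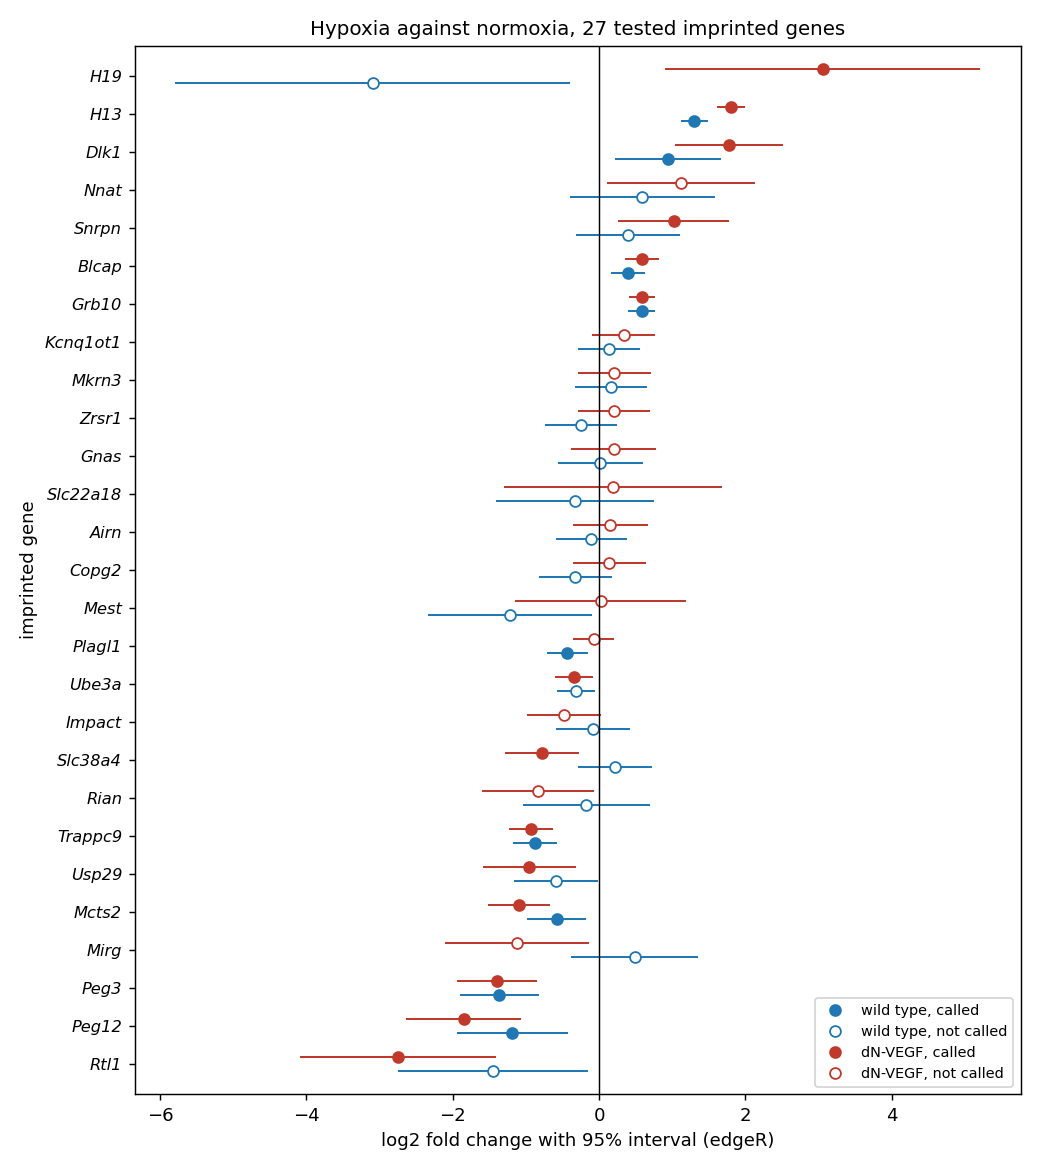
Log2 fold change of hypoxia against normoxia with its 95% interval (x axis) for the 27 tested imprinted genes (y axis), in wild type (blue) and dN-VEGF cells (red). Filled points passed an adjusted p of 0.05 in the edgeR quasi-likelihood test. Of the filled points, 4 wild type and 6 dN-VEGF ones lie above 0, and 5 and 8 below.

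**Figure D4:**
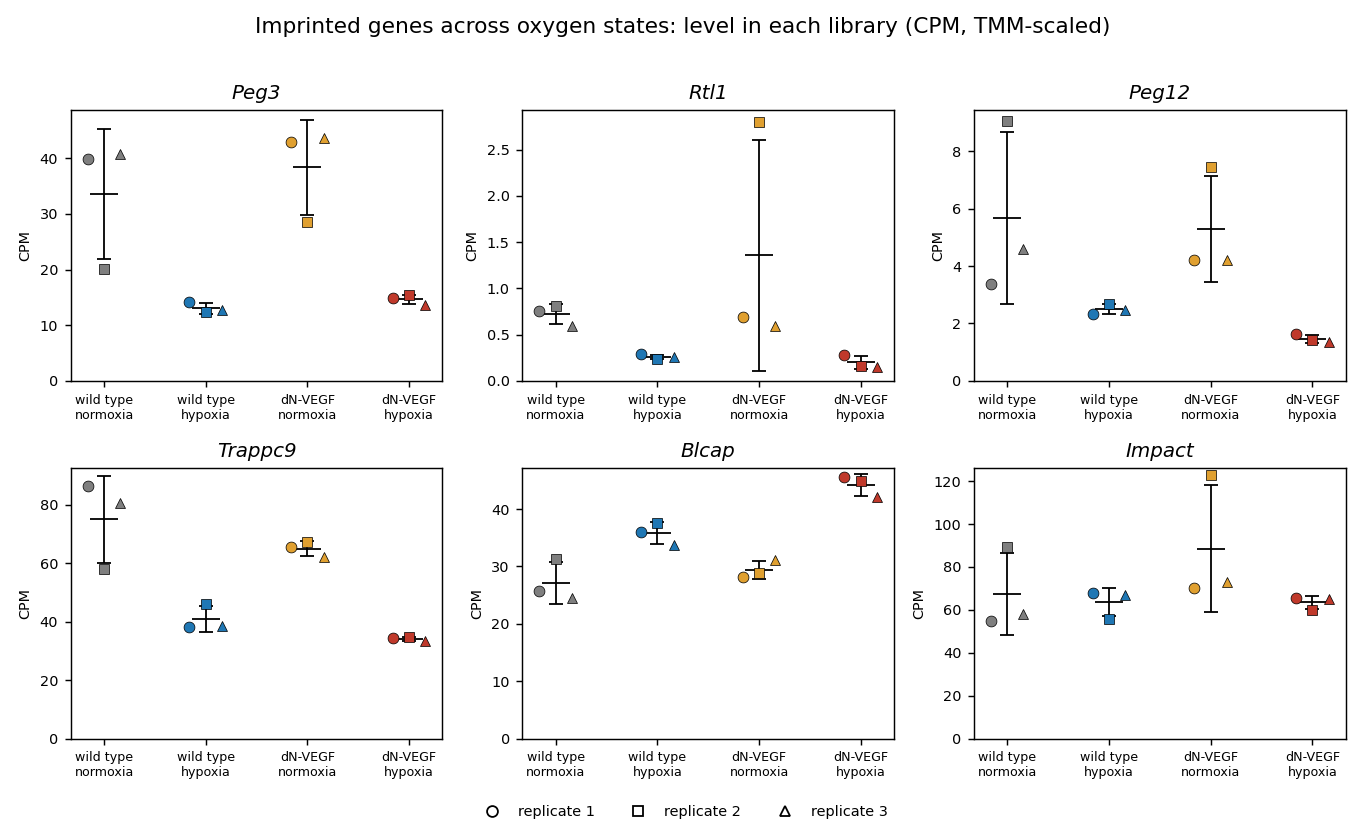
Level in CPM (y axes, from 0) of Peg3, Rtl1, Peg12, Trappc9, Blcap and Impact in each of the 12 libraries. Symbols mark the replicate number, and bars give the mean and SD of 3 libraries. Peg3 and Trappc9 are lower in all hypoxic than in all normoxic libraries, and the squares of the normoxia libraries numbered 2 lie apart from the other normoxic points for Peg3, Peg12 and Impact.

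The third question is whether the response to hypoxia differs between the lines. Of the 27 tested genes, 1 was called in this interaction (3.7%), H13, against 3.36% of all tested genes (2.21% in the positive direction, that is higher in dN-VEGF cells, and 1.15% in the negative). Its response was larger in dN-VEGF cells by 0.50 (SE 0.12, adjusted p = 0.044), and leaving out any library but wild type normoxia replicate 2 ended the call (adjusted p 0.056 to 0.14), as did the replicate block (0.50, adjusted p = 0.054). Without both normoxia libraries numbered 2, 14 genes were called, 9 in the positive and 5 in the negative direction, when 52.8% of all tested genes were called. Total counts alone also gave 1 gene, Slc38a4, in the negative direction (-1.22, adjusted p = 0.029), when 6.13% of all tested genes were called. Of the 27 genes, 12 were called in none of the 5 comparisons at the settings used throughout. The share of all tested genes called in none was not computed. All of these 12 but Gnas and Mkrn3 were called in some comparison under at least 1 alternative.

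**Figure D5:**
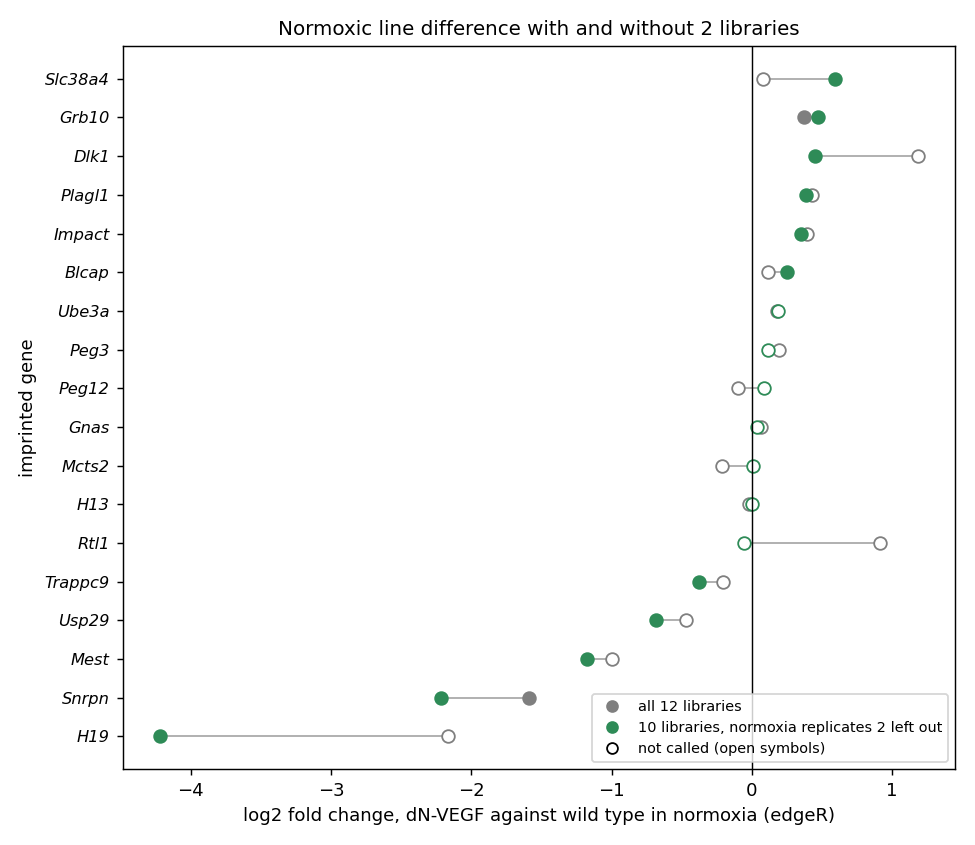
Log2 fold change of dN-VEGF against wild type cells in normoxia (x axis) for 18 imprinted genes (y axis), from all 12 libraries (grey) and from 10 libraries without the normoxia replicates numbered 2 (green). Filled points were called and open ones were not. H19 moves from -2.17 to -4.22, Dlk1 from 1.18 to 0.45 and Slc38a4 from 0.08 to 0.59.

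Start regions were searched for the letters TGCCGC, which the zinc finger protein ZFP57 binds when methylated at imprinting control regions. RefSeq windows of 250 bases before to 50 after a start (GRCm38.p6) were at hand for 34 of the 43 genes, as 48 windows, since some genes have several starts. Some windows overlap: Snrpn and Snurf share 1, and 2 of Mest nearly coincide. By gene, TGCCGC on either strand was in a window of 12 of the 34 genes (35.3%), against 13.1% of the 27025 genes with a window. By window, it was in 13 of the 48 (27.1%), against 11.6% of 32851. Observed over expected CpG had a median of 0.604 in these windows and 0.384 in all. Among genes called in any comparison, 12 had a window and 4 of these a match, a share like that over all 34 genes, and the stretches around it are shown so that the core can be seen in place, in capitals and read along the strand of the gene, as TGCCGC or as its reverse complement GCGGCA. They lie at chr10:13090730-13090759 (plus strand) for Plagl1, chr11:12037379-12037408 (minus) for Grb10, chr2:152686898-152686927 (plus) for Mcts2 and chr7:60005184-60005213 (minus) for Snrpn.
Plagl1: ctggcgtgttgcGCGGCAaagcccacggca
Grb10: gggtgcggggagGCGGCAggaagggaaggg
Mcts2: gccTGCCGCagcttggcgcatgtccagtcc
Snrpn: gacccctgcattGCGGCAaaaatgtgcgca
A match is a run of letters and not a measured site. Of these 4 genes, Plagl1 and Grb10 were higher and Mcts2 lower in hypoxic dN-VEGF cells, and Snrpn was lower in normoxic ones.

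Factors that keep or read imprints were described from a list of 13, of which 12 were tested. Between the lines edgeR called 0 of the 12 in normoxia, against 4.36% of all tested genes, and 0 in hypoxia, against 20.1%. At an unadjusted p under 0.05 there were 1 in normoxia and 3 in hypoxia. DESeq2 called 1 in normoxia, against 8.16% of all, and 0 in hypoxia, against 21.8%. In hypoxia 3 fell in wild type cells (25%, against 18.3% of all tested genes lower), and in dN-VEGF cells 6 fell and 1 rose (58.3% in all, against 53.3% of all tested genes called, and 26.4% of all lower). Zfp57, which guards imprints after fertilization, was the gene that rose. It gave 31.7, 15.3 and 31.1 CPM in wild type normoxia, 36.0, 38.0 and 37.6 in wild type hypoxia, 21.1, 16.8 and 20.98 in dN-VEGF normoxia and 34.8, 27.8 and 32.3 in dN-VEGF hypoxia, and it rose in dN-VEGF cells by 0.69 (SE 0.23, adjusted p = 0.026). That call was not refitted without single libraries. Dnmt1, the maintenance DNA methyltransferase, gave 231, 616 and 215 CPM in wild type normoxia, 159, 170 and 165 in wild type hypoxia, 391, 540 and 391.99 in dN-VEGF normoxia and 90.75, 94.03 and 85.7 in dN-VEGF hypoxia. Its hypoxic libraries were the lower ones in each line, and both normoxia libraries numbered 2 were the highest of their groups. These 2 genes were chosen after their values were seen.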

How the data were processed

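The authors prepared libraries from total RNA with a kit that does not mark strand, and the labels name Trim Galore, cutadapt 1.10, TopHat2 2.1.0, Bowtie2 2.2.6 and HTSeq 0.6.1. They deposited raw counts of reads per gene with Ensembl positions on GRCm38, without scaling. The overlap mode and strand setting of the counting are not given in the sources used here.

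The 12 libraries entered 1 edgeR fit (version 4.0.16, R 4.3.3), with filterByExpr and TMM (1 mean per group, quasi-likelihood F test, 8 residual degrees of freedom, Benjamini-Hochberg over 14724 genes). Code was tested on simulated counts. Limma 3.58.1 served as a library of edgeR, and DESeq2 1.42.0 as an alternative. The members and lists were chosen with earlier results of these data known. Values are given for genes called in at least 1 comparison and for 13 listed ones where tested, and from 48 further imprinted genes for Igf2, Igf2r and, per line comparison, up to 3 called genes of at least 1 CPM with the largest changes. Replicate numbers come from the titles. Deviations of same-numbered libraries from their group means correlated between the lines at 0.378, 0.498 and 0.355 in normoxia, but numbers 1 and 3 crossed at 0.347 and 0.358, and in hypoxia same numbers gave 0.0212, 0.109 and 0.0883. No pair of libraries agreed within sampling noise. Exon lengths and overlaps are from GENCODE M21, starts from RefSeq. Protein comparisons were not done.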

Additional observations from a re-analysis of the deposited data

Results flagged for a closer look

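The response of H13 to hypoxia was larger in dN-VEGF than in wild type cells by 0.50 on the log2 scale (SE 0.12, adjusted p = 0.044, edgeR quasi-likelihood interaction term), and this difference between the lines is why it is given here. All 3 hypoxic dN-VEGF libraries, at 380 to 391.7 CPM, were above the 3 hypoxic wild type libraries, at 263 to 300 CPM, while normoxic libraries lay between 106 and 118 CPM in both lines. Over 20 alternatives the value ranged from 0.33 to 0.55 and was called in 5 (adjusted p 0.00011 to 0.29).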

How the results depend on the processing

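Counts of called genes under the alternatives were as follows. Requiring a fold change of at least 2 gave 1 in normoxia (2.17% of all tested genes) and 2 in hypoxia (6.81%) between the lines, 3 for hypoxia in wild type (15.7%), 8 in dN-VEGF cells (27.2%) and 0 for the interaction (1.56%). Between the lines in normoxia, total counts alone gave 1 (3.82% of all tested genes called), DESeq2 gave 6 (8.16%) and the 6 libraries of the comparison gave 0 (0.108%). The same restriction gave 14 of 23 in hypoxia, when 57% of all tested genes were called. Leaving out both normoxia libraries numbered 2 gave 16 and 16 between the lines, 21 for hypoxia in wild type cells and 14 for the interaction. Leaving out 1 library at a time gave 0 to 17 in normoxia (1.1% to 48.9% of all tested genes) and 4 to 15 in hypoxia (10.1% to 42.4%) between the lines, 5 to 15 for hypoxia in wild type (26.8% to 54%), 10 to 18 in dN-VEGF cells (42.9% to 67.1%), and 0 to 10 for the interaction (0.493% to 44.4%). The highest counts came without wild type normoxia replicate 2. The replicate block gave 3 and 7 between the lines (4.37% and 22% of all tested genes), 10 and 15 for hypoxia (38.6% and 55.5%) and 0 for the interaction (3.29%), and in the 6 normoxia libraries, chosen after seeing the data, 0. It ended the calls of H19 between the lines in hypoxia and of H13 in the interaction. The causes were not tested.

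Over 18 named imprinted genes, 1648 of the refitted values stayed on the same side of the threshold, 121 lost a call, 94 gained one and 1 turned, being called with the other sign. Values that were not called could change sign and still count among the 1648. Impact in wild type hypoxia turned from -0.08 to 0.18 (adjusted p = 0.038) without both normoxia libraries numbered 2. Under the same setting, the normoxic line differences of Igf2 and of Dcn, a matrix proteoglycan, turned to -1.82 (adjusted p = 1.1e-06) and -0.24 (adjusted p = 0.003). H19, Rian, Mirg and Nnat had at most 19 counts in a library, so small differences in them were not detectable.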

Other observations

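Of 48 further imprinted genes, 31 were tested. This list was chosen with earlier results of these data known, so its shares support no conclusion about imprinted genes. Between the lines 13 of the 31 were called in hypoxia (41.9%, against 20.1% of all tested genes), 7 higher and 6 lower in dN-VEGF cells. In normoxia 3 were called (9.68%, against 4.36% of all), 1 higher and 2 lower. Between oxygen states 11 were called in wild type cells (35.5%, against 36.5% of all) and 19 in dN-VEGF cells (61.3%, against 53.3% of all). The interaction called 4 (12.9%, against 3.36% of all). Dcn gave 57.02, 10.8 and 54.8 CPM in wild type normoxia, 6.13, 5.51 and 5.91 in wild type hypoxia, 47.3, 79.1 and 46.7 in dN-VEGF normoxia and 60.6, 60.4 and 61.7 in dN-VEGF hypoxia. It was 10.4-fold higher in hypoxic dN-VEGF than in hypoxic wild type cells (log2 3.38, SE 0.50, adjusted p = 0.0015). Its response to hypoxia was higher in dN-VEGF cells by 2.88 (SE 0.66, adjusted p = 0.041), a call lost without any of the 10 libraries other than the normoxia ones numbered 2 (adjusted p 0.095 to 0.12). Igf2os, antisense to Igf2, was higher there by 3.48 (SE 1.12, adjusted p = 0.049), a call lost without any of 9 libraries, all but the normoxia ones numbered 2 and dN-VEGF normoxia replicate 3 (adjusted p 0.052 to 0.15), and a small stretch of its exons overlaps those of Igf2 on the opposite strand.

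Sfmbt2, a Polycomb gene, gave 13.4, 7.87 and 12.6 CPM in wild type normoxia, 11.97, 12.2 and 13.2 in wild type hypoxia, 4.93, 3.48 and 6.30 in dN-VEGF normoxia and 5.14, 6.24 and 6.01 in dN-VEGF hypoxia. All dN-VEGF libraries were below all wild type ones. It was lower in dN-VEGF cells by -1.20 (SE 0.23, adjusted p = 0.017) in normoxia and by -1.10 (SE 0.23, adjusted p = 0.008) in hypoxia. The normoxic call was lost without wild type normoxia replicate 1 or 3 or dN-VEGF normoxia replicate 1 (adjusted p 0.066 to 0.077). Begain, beside Dlk1 on chromosome 12, was higher in dN-VEGF cells by 1.05 (SE 0.26, adjusted p = 0.048) in normoxia and by 1.82 (SE 0.26, adjusted p = 0.0012) in hypoxia. The normoxic call of Begain ended without any library but wild type normoxia replicate 2 (adjusted p 0.057 to 0.14).

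Of 15 genes often described as a co-regulated imprinted network, 12 of which are among the 43, 11 were tested. Between the lines in hypoxia 7 were called (63.6%, against 20.1% of all tested genes), 6 higher and 1 lower in dN-VEGF cells, and 1 in normoxia (9.09%, against 4.36% of all). The list was chosen with earlier results known, so its count supports no direction.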
